A study of Mus musculus with 8 samples.

Results

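The genes described here encode 2 death ligands, their receptors and the proteins that the receptors assemble around caspase-8: Fasl, Tnfsf10, Fas, Tnfrsf10b, Fadd, Casp8 and Cflar. They were chosen by name for their place in this pathway, with earlier results of these data known. They are 7 of 22180 genes that had a transcript cluster of their own on Affymetrix Mouse Gene 2.0 ST arrays. Each was read by a single cluster, and all 7 were among the 13998 genes bright enough to be tested. Mouse NK cells were measured in 4 groups of 2 biological replicates, 8 arrays in all. Day 0 cells were freshly isolated and are titled naive, although a second label describes every sample as activated with IL-2. Day 4 cells had been activated with IL-2 at 1000 IU/mL, which the labels call acute. Day 9 cells received IL-2 a further time after day 4 and are called chronic, and a parallel group at day 9 was given the ATM kinase inhibitor KU55933 (7.5 µM) on day 4. For all 4 groups T cells had been removed from marrow suspensions by CD90 selection, and the activated cells were those that adhered in culture. The labels name no strain, age, sex or batch, and they mention a vehicle control without stating whether the day 9 cells received it.

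Fas ligand and TRAIL, the product of Tnfsf10, are membrane proteins of the tumour necrosis factor family with which NK cells kill targets independently of perforin. Bound by ligand, the receptors Fas and TRAIL-R2 (Tnfrsf10b) gather the adaptor FADD, which brings in caspase-8, and caspase-8 then cleaves further substrates. The product of Cflar, c-FLIP, resembles caspase-8 without its proteolytic activity and takes its place in the complex, so its amount bears on whether a bound receptor kills. Activated lymphocytes carry both ligands and receptors, and can therefore be targets of this pathway as well as users of it.

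The promoters of 4 members are shown because their transcripts moved at different times or in different directions: Tnfsf10 and Casp8 were higher by day 4, Cflar was higher only at day 9 on the deposited scale, and Fas was lower. Each is the RefSeq sequence (GRCm38.p6) of the 250 bases before the annotated start, 5′ to 3′ on the gene's strand. Capitals mark matches, on either strand, of an NFAT core (GGAAA), a STAT element (TTCNNNGAA), an IRF core (AANNGAAA) or an AP-1 site (TGANTCA).
Tnfsf10, chr3:27316827-27317076, plus strand: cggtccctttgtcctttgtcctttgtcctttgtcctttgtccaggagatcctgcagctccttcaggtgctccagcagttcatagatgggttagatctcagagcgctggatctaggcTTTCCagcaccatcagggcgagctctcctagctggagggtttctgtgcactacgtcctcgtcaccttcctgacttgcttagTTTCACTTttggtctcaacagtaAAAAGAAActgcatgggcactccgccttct
Casp8, chr1:58802252-58802501, plus strand: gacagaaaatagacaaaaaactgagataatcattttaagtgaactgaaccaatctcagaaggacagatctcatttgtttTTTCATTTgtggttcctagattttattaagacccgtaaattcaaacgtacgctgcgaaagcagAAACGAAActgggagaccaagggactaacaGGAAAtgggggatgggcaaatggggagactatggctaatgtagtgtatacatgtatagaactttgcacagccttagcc
Cflar, chr1:58711241-58711490, plus strand: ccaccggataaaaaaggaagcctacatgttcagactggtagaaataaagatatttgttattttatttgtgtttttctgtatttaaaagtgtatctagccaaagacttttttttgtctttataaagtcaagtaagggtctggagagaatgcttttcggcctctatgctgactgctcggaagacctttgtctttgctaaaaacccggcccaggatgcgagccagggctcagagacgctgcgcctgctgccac
Fas, chr19:34290409-34290658, plus strand: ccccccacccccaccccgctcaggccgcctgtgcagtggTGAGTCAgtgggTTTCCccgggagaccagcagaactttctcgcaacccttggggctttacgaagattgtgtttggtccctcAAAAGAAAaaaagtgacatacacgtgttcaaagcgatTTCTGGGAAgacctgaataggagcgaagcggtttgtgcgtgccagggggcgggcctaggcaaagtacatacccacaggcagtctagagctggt
Of the 7 members, 6 had such a window, all but Tnfrsf10b. The IRF core was present in the windows of Tnfsf10, Fas and Casp8, or 3 of 6, against 21.3% of 32851 RefSeq windows of that length. In Tnfsf10 it lay at -53 to -46 and -30 to -23 from the start, in Casp8 at -171 to -164 and -108 to -101, and in Fas at -130 to -123. The STAT element (7.02% of all windows) and the AP-1 site (6.75%) were each found in Fas alone, at -93 to -85 and at -211 to -205. The NFAT core, at 55.6% of all windows a common string, was in 5 of 6, all but Cflar. Cflar held none of the 4 motifs. The motifs were chosen after the sequences were seen, so these counts cannot show an excess over the shares of all windows. The NFAT and IRF cores can share bases, but no matches did so in these 6 windows.

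Values are log2 signals as the authors deposited them, and signals of different genes are read by different probes, so that levels were compared between groups and not between genes. A change was called when its limma p-value, adjusted over all 13998 tested genes, lay below 0.05. Array medians over all clusters lay between 3.66 and 3.92, and a signal below its array's median was treated as background. All 10 NK markers examined lay above the array median on all 8 arrays (mean log2 signal 9.70 to 9.96). That mean hides changes in both directions: 4 of the 10 rose and 4 fell at day 4 against day 0. At day 9 against day 0 the counts were again 4 and 4. Marker genes of other marrow cells also changed over the same days. Log2 summed signals of 8 neutrophil markers were 6.94 to 7.32 at day 0, 9.12 on both day 4 arrays, and 6.25 to 6.34 at day 9. Those of 5 B cell markers were 9.68 to 9.98 at day 0, 7.89 to 8.56 at day 4 and 6.17 to 6.23 at day 9. Those of 6 monocyte and macrophage markers were 11.14 to 11.25, 10.13 to 10.40 and 7.80 to 7.96 on the same days. In RNA from bulk cells, fewer cells of a type and less RNA per cell cannot be told apart.

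Of the ligands, TRAIL mRNA varied most. Tnfsf10 (cluster 17396383, chromosome 3) had log2 signals of 4.54 and 3.71 at day 0, 7.02 and 7.0 at day 4, 5.98 and 5.92 at day 9 with KU55933, and 5.73 and 5.93 at day 9. The day 4 arrays were highest and stood apart from every other array, the day 9 arrays of both kinds overlapped each other, and both day 0 arrays were lowest, the second of them below its array's median. Tnfsf10 rose 7.41-fold at day 4 against day 0 (log2 change 2.89 ± 0.24 SE, adjusted p = 2.56e-05). It was lower at day 9 than at day 4 (fell by 1.18 ± 0.24 SE, 2.27-fold, adjusted p = 0.00812), while still 3.26-fold above day 0 (adjusted p = 0.000471). The fall between day 4 and day 9 was not called without either day 4 array or without the first day 9 array (adjusted p = 0.0504 to 0.0541). Of the 8 neutrophil markers above, 7 were also higher at day 4 than at day 0 and 7 lower at day 9 than at day 4. At day 9 against day 0, where Tnfsf10 was still higher, 1 rose and 3 fell. Their part in the Tnfsf10 values was not tested.

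Fas ligand mRNA changed little on the same arrays. Fasl (cluster 17228864, chromosome 1) had log2 signals of 8.66 and 8.73 at day 0, 8.50 and 8.51 at day 4, 8.83 and 8.73 at day 9 with KU55933, and 8.81 and 8.96 at day 9. All 8 values lay within 0.46 log2 units, with the day 4 arrays lowest. The difference between day 4 and day 0 was -0.19 ± 0.11 (SE, adjusted p = 0.184), and only the step between day 4 and day 9 was called (0.38 ± 0.11 SE, 1.30-fold higher at day 9, adjusted p = 0.0394). That call was lost without any one of the day 4 or day 9 arrays, inhibitor-treated ones included (adjusted p = 0.0645 to 0.194), with no filter on dim genes (0.0892) and with the replicate number as a block (0.0583). The position of day 0 depended on scaling. With each array centred on the median of its 13998 tested genes, Fasl was called lower at day 4 than at day 0 (-0.53, adjusted p = 0.00301). Quantile normalization gave the same call (-0.62, adjusted p = 0.00159). The medians over all clusters given above, which were higher at day 0 than on the other arrays, were not used for centring. Centring shifted every change against day 0 by the same amount, -0.345 at day 4, -0.298 at day 9 with KU55933 and -0.228 at day 9, and every change at day 9 against day 4 by 0.117.

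The 2 receptors moved in opposite directions. Fas (cluster 17358797, chromosome 19), the receptor of Fas ligand, had log2 signals of 5.12 and 5.15 at day 0, 4.51 and 4.32 at day 4, 4.15 and 4.36 at day 9 with KU55933, and 3.98 and 3.85 at day 9. Day 0 was highest and day 9 without inhibitor lowest, and the inhibitor-treated arrays overlapped those of day 4 but not those of day 9. At day 4 Fas was 1.65-fold lower than at day 0 (-0.72 ± 0.13 SE, adjusted p = 0.0015), and at day 9 it was 2.33-fold lower (-1.22 ± 0.13 SE, adjusted p = 9.07e-05). Both untreated day 9 signals lay just above their array medians of 3.70 and 3.71. The size of the changes that involve day 9 was thus read near the level treated as background. The further fall between day 4 and day 9 (-0.50 ± 0.13 SE, adjusted p = 0.0217) was not called with centred arrays (-0.38, 0.0556), with a mean-variance trend (0.05) or without any one of the day 4 or untreated day 9 arrays (0.054 to 0.153). The summed signals of the B cell, macrophage, dendritic cell and platelet markers were also highest at day 0. Of 5 dendritic cell markers, 1 rose and 4 fell at day 4, and 1 rose and 1 fell between day 4 and day 9. All 5 B cell markers fell at day 4, as did all 4 megakaryocyte and platelet markers, whose log2 summed signals were 6.75 to 7.18 at day 4 and 11.02 to 11.16 at day 0. Of the 6 monocyte and macrophage markers, 2 rose (Cd14 and Ms4a7) and 3 fell at day 4, and Cd14 rose again between day 4 and day 9. Their part in the fall of Fas was not tested.

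The TRAIL receptor Tnfrsf10b (cluster 17301697, chromosome 14), the death-inducing TRAIL receptor of the mouse, had log2 signals of 3.77 and 3.66 at day 0, both below the array median. They were 6.19 and 6.04 at day 4, 7.26 and 7.21 at day 9 with KU55933, and 7.25 and 7.09 at day 9. The 3 times did not overlap, and the inhibitor-treated arrays overlapped those of day 9. Because both day 0 arrays lay below the median, the folds against day 0 are bounds: at least 4.64-fold higher at day 4 (adjusted p = 2.87e-06), at least 9.64-fold at day 9 (adjusted p = 6.92e-07) and at least 10.1-fold at day 9 with KU55933 (adjusted p = 7.01e-07). Between day 4 and day 9 it rose a further 2.08-fold (log2 change 1.06 ± 0.12 SE, adjusted p = 5e-04). Across the 4 groups its F test ranked 102nd of all 13998 tested genes.

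**Figure D1:**
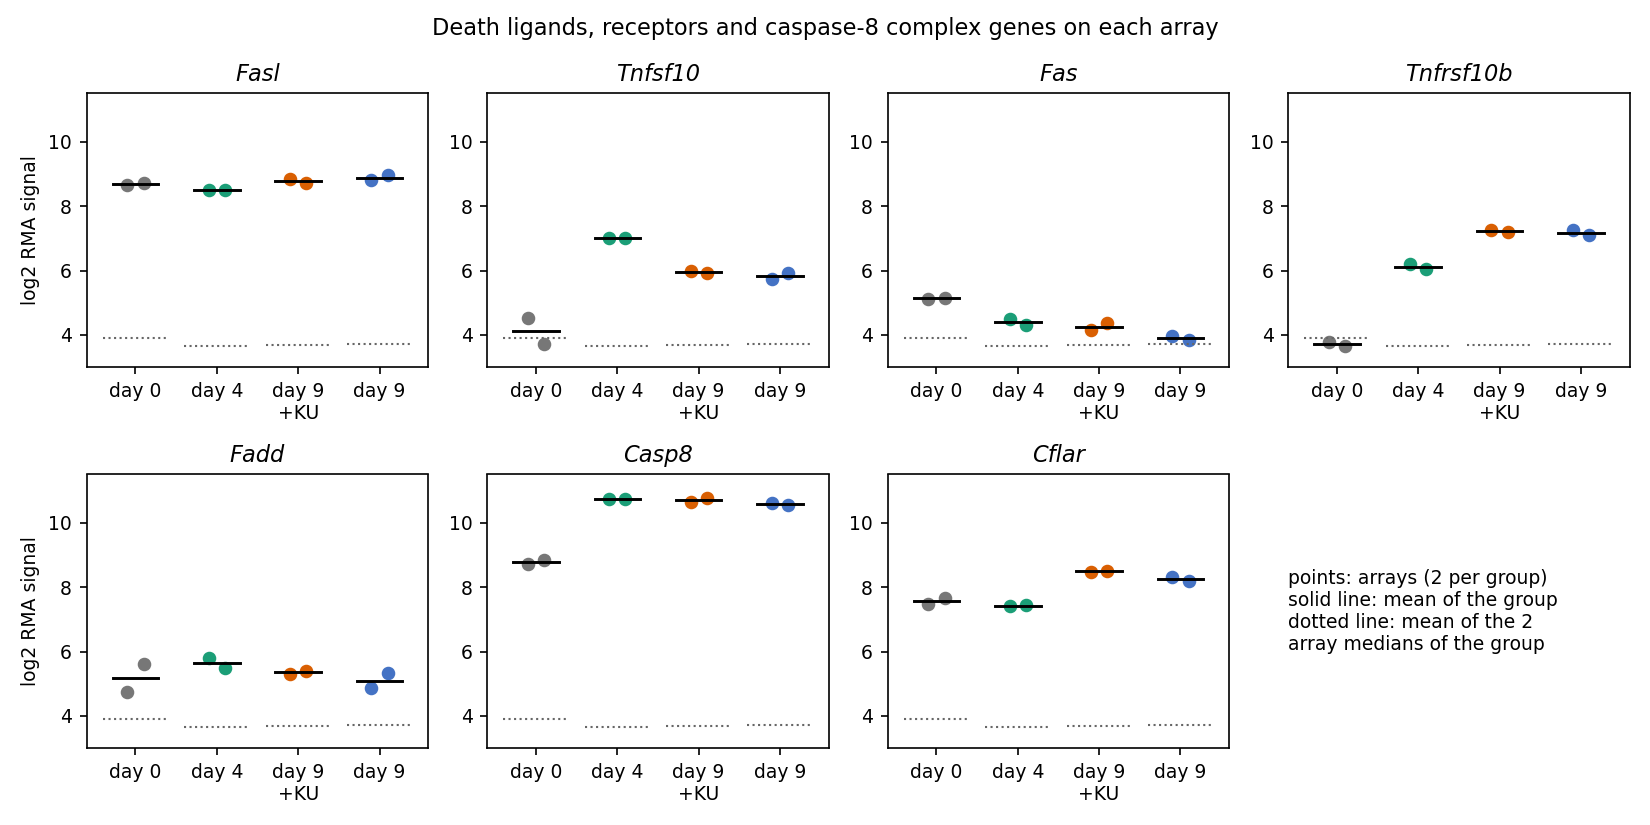
Log2 RMA signal (y axis) of the 7 genes on each of the 8 arrays, by group (x axis); points are arrays, solid lines group means and dotted lines the mean of the group's array medians. Tnfsf10 is highest at day 4, Tnfrsf10b and Casp8 are higher in all activated groups than at day 0, Cflar is higher in both day 9 groups, Fas is highest at day 0, and Fasl spans 0.46 log2 units.

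Of the proteins that assemble on the receptors, the adaptor gene Fadd (cluster 17498461, chromosome 7) had log2 signals of 4.75 and 5.61 at day 0, 5.79 and 5.48 at day 4, 5.32 and 5.38 at day 9 with KU55933, and 4.87 and 5.32 at day 9. The day 0 pair spanned most of the range of the 8 arrays (SD 0.61, n = 2), and all 4 day 9 arrays lay within it, as did the second day 4 array. No comparison of Fadd was called, and the interval of the day 4 difference from day 0 ran from -0.19 to 1.10. Without the second day 0 array that difference was 0.88 and was called (adjusted p = 0.0124).

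Casp8 (cluster 17213213, chromosome 1), the initiator caspase of the pathway, was higher by day 4 and at a like level afterwards. Its log2 signals were 8.71 and 8.83 at day 0, 10.73 and 10.74 at day 4, 10.65 and 10.77 at day 9 with KU55933, and 10.62 and 10.54 at day 9. All 6 activated arrays lay above both day 0 arrays. Casp8 rose 3.90-fold at day 4 (1.96 ± 0.11 SE, adjusted p = 4.61e-06), and was 3.51-fold above day 0 at day 9 (adjusted p = 6.71e-06). The day 9 value differed from that of day 4 by -0.15 ± 0.11 (SE, adjusted p = 0.367), with an interval of -0.41 to 0.11.

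Cflar (cluster 17213192, chromosome 1), the gene of the caspase-8 inhibitor c-FLIP, followed a later course. Its log2 signals were 7.48 and 7.65 at day 0, 7.42 and 7.44 at day 4, 8.48 and 8.50 at day 9 with KU55933, and 8.31 and 8.19 at day 9. Both day 9 groups lay above day 0 and day 4, and the day 4 arrays were lowest. Cflar rose 1.76-fold between day 4 and day 9 (0.82 ± 0.11 SE, adjusted p = 0.00137) and was 1.60-fold above day 0 at day 9 (adjusted p = 0.00118). Its day 4 difference from day 0 was -0.14 ± 0.11 (SE, adjusted p = 0.322). That difference was called lower with centred arrays (-0.48, adjusted p = 0.00662) and with quantile normalization (-0.57, adjusted p = 0.0023). In the RefSeq gene table Cflar and Casp8 are neighbours on chromosome 1 with no protein-coding gene between them. At day 4, then, Casp8 was called higher than at day 0 while its neighbour was not, and between day 4 and day 9 Cflar was called higher while Casp8 was not.

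At day 4 against day 0, 3 members rose (Tnfsf10, Tnfrsf10b and Casp8), 1 fell (Fas) and 3 were not called. Of all tested genes, 37.5% rose and 22.4% fell in that comparison, so that changes of this kind were common across the arrays. The arrays of day 4 and day 0 did not overlap for 6 of 7 members, against 78.6% of all tested genes. The members' median change was 0.45 against 0.08 over all tested genes. That median is the change of Fadd alone, which was not called, so it does not show a shift of the 7 genes. Of all called genes 62.6% were higher at day 4 on the deposited scale, 57.9% with quantile normalization and 40.4% with centred arrays. At day 9 against day 0, 4 members rose (those 3 and Cflar) and Fas fell, against 36% and 22% of all genes. Higher genes made up 62% of all calls there, 58.3% with quantile normalization and 46.8% with centring. At day 9 with KU55933 against day 0 the counts were again 4 and 1, against 37.3% and 21.9%. Higher genes were 63% of those calls, 58.9% with quantile normalization and 43.3% with centring. The comparisons against day 0 share its 2 arrays.

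At day 9 against day 4, 3 members rose (Fasl, Tnfrsf10b and Cflar), 2 fell (Tnfsf10 and Fas), and Fadd and Casp8 were not called. Fewer genes changed at this step, 12.2% upwards and 15.6% downwards. Higher genes made up 43.9% of calls, 47.6% with quantile normalization and 58.9% with centring. The arrays of day 9 and day 4 did not overlap for any of the 7 members, nor for 67.9% of all tested genes. The members' median change was -0.15 against -0.01 for all genes, and it is the change of Casp8 alone, which was not called. Without 1 day 4 or untreated day 9 array, 2 or 3 of the 7 members were called in place of 5, and Tnfrsf10b and Cflar were called in every refit. A 2-fold minimum left Tnfsf10 and Tnfrsf10b. At day 9 with KU55933 against day 4, 2 members rose (Tnfrsf10b and Cflar) and Tnfsf10 fell, against 12.3% and 13.7% of all genes. In the F test over the 4 groups, 5 of 7 members were called, all but Fasl (adjusted p = 0.0724) and Fadd (0.35), against 65.8% of all tested genes. The authors' deposited table lists 6 of the 7, all but Fadd, with false discovery rate p-values of 0.000839 for Tnfrsf10b, 0.001158 for Casp8 and 0.080143 for Fasl.

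**Figure D2:**
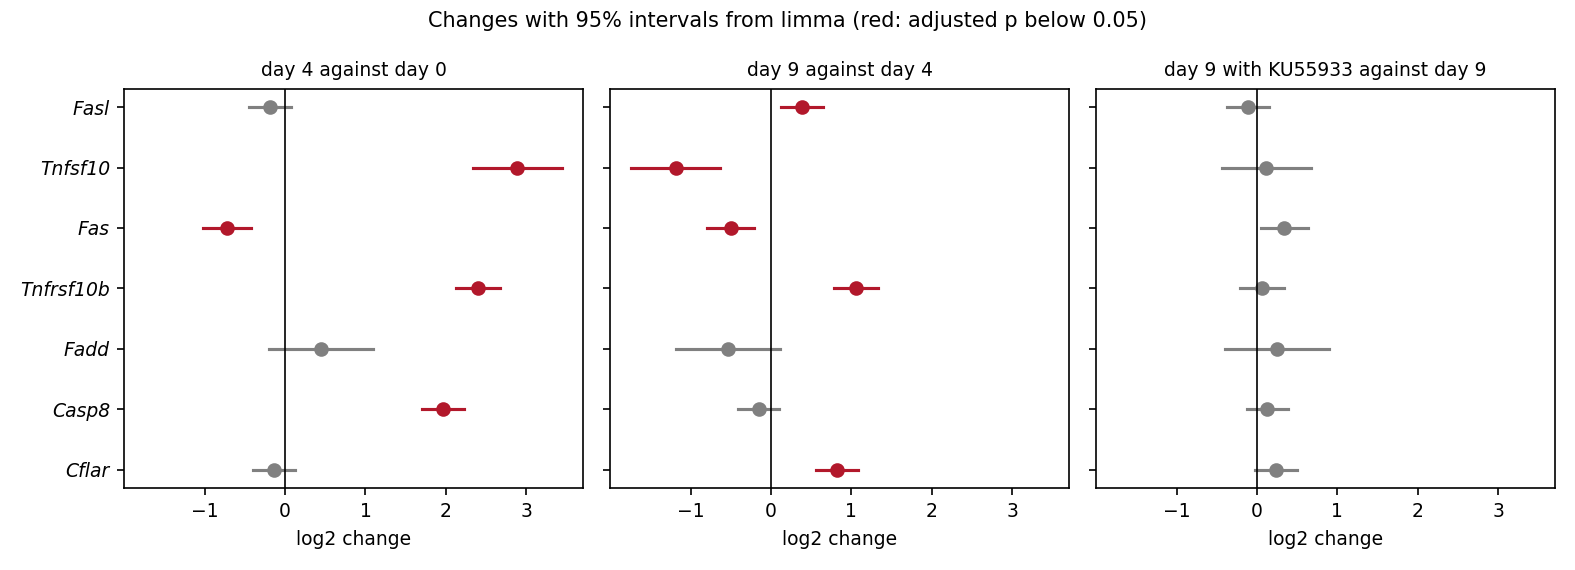
Log2 change (x axis) of each of the 7 genes (y axis) in 3 comparisons, with 95% intervals from limma; red marks an adjusted p below 0.05. At day 4 Tnfsf10, Tnfrsf10b and Casp8 are higher and Fas lower than at day 0, at day 9 Fasl, Tnfrsf10b and Cflar are higher and Tnfsf10 and Fas lower than at day 4, and no member is called for KU55933 at day 9.

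KU55933 blocks ATM, a kinase activated by DNA double-strand breaks that acts on p53 among others, and Fas and Tnfrsf10b are known p53 target genes. No member was called between day 9 with KU55933 and day 9, where 0.75% of all genes rose and 0.236% fell. Higher genes were 76.1% of those calls, 67.5% with quantile normalization and 58.7% with centring. Only Fas had an unadjusted limma p below 0.05, and no alternative setting of limma called a member. Fas averaged 4.26 ± 0.15 with KU55933 and 3.92 ± 0.09 without it (SD, n = 2 each), and its arrays did not overlap, as was the case for 48.1% of all tested genes. Without the inhibitor its signals lay just above the array median, near the level treated as background. Its difference was 0.34 ± 0.13 (SE, unadjusted p = 0.0284, adjusted p = 0.334), with an interval of 0.05 to 0.63. Cflar averaged 8.49 ± 0.01 with the inhibitor and 8.25 ± 0.09 without it (SD, n = 2 each), again without overlap. Its interval was -0.02 to 0.50 (adjusted p = 0.463). Casp8 arrays did not overlap either, with an interval of -0.13 to 0.39 (adjusted p = 0.722). For Tnfrsf10b the interval was -0.21 to 0.34, for Tnfsf10 -0.44 to 0.67 and for Fasl -0.37 to 0.16, and the arrays overlapped for all 3. Fadd had the widest interval, -0.39 to 0.90. None of the 7 intervals reached a 2-fold change in either direction. T cell markers (9 genes) had log2 summed signals of 10.33 to 10.47 with KU55933 and 10.11 to 10.14 without it, and 0 of the 9 were called by limma (3 had an unadjusted p below 0.05). Those of the neutrophil markers were 6.65 to 6.67 and 6.25 to 6.34, and 1 of the 8, Ly6g, was called higher. Of the 6 monocyte and macrophage markers, 0 rose and 1 fell, and of 5 dendritic cell markers 1 rose and 1 fell. No NK cell, B cell or platelet marker was called. The part of any of these markers in the member values was not tested.

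Other genes of the pathway were counted on lists of ligands, receptors, complex proteins, caspases, caspase regulators, Fas ligand proteases and p53 targets. These counts are to be read against the shares of all tested genes. At day 4 against day 0, 37.5% of those rose and 22.4% fell. At day 9 against day 4, 12.2% rose and 15.6% fell. Whether any list differed from these shares was not tested. Among 7 tested TNF family ligands, members included, 3 rose and 1 fell at day 4 against day 0, and 1 rose and 4 fell at day 9 against day 4. The day 4 count was 3 and 3 with centring and 2 and 2 with quantile normalization. Lta, which encodes lymphotoxin alpha, had log2 signals of 4.36 and 4.93 at day 0, 5.87 and 6.11 at day 4, 6.02 and 5.84 at day 9 with KU55933, and 5.06 and 4.71 at day 9. Day 4 and inhibitor-treated day 9 cells were thus at one level, and day 0 and untreated day 9 cells below it. Lta rose by 1.35 at day 4 (adjusted p = 0.000818) and fell by 1.11 between day 4 and day 9 (adjusted p = 0.00635), a call lost without the second day 4 array (0.0548). Its difference between day 9 with KU55933 and day 9 was 1.04 (adjusted p = 0.0792). Ltb, which encodes the membrane partner of lymphotoxin alpha, fell by 1.62 at day 4 (adjusted p = 2.09e-05) and was not called between day 4 and day 9. Tnfsf14, the gene of the ligand LIGHT, fell by 1.02 between day 4 and day 9 (adjusted p = 0.00134).

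Among 11 receptors and decoys, 4 rose and 3 fell at day 4, and 2 rose and 2 fell between day 4 and day 9. With centred arrays or quantile normalization the day 4 count was 4 and 5. Tnfrsf11b, which encodes osteoprotegerin, a soluble receptor that can bind TRAIL, had log2 signals of 3.40 and 3.99 at day 0, 6.67 and 6.49 at day 4, 8.85 and 8.92 at day 9 with KU55933, and 8.66 and 8.85 at day 9. It was stepwise higher in the same order as Tnfrsf10b (day 4 against day 0 2.88, adjusted p = 9.43e-06; day 9 against day 4 2.17, adjusted p = 0.000142). The first day 0 array lay below its median. Tnfrsf25, the death receptor DR3, was lower at day 4 by 0.83 (adjusted p = 0.00185).

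Tnfrsf23, a mouse decoy receptor for TRAIL without a death domain, was the only gene of the 7 lists called between day 9 with KU55933 and day 9 in the main fit. That it stood alone depended on the setting. With a percentile 75 filter, a mean-variance trend or array weights, 2 receptors, 1 ligand and 1 caspase were called in this comparison. The trend and the array weights also each called 1 gene of the caspase regulator list. Tnfrsf23 was described further as follows. The log2 signals of Tnfrsf23 were 3.89 and 3.07 at day 0, 4.57 and 4.56 at day 4, 6.77 and 6.80 at day 9 with KU55933, and 5.07 and 5.35 at day 9. Both inhibitor-treated arrays lay above every other array, and both day 0 arrays lay below the array median. The difference between day 9 with KU55933 and day 9 was 1.58 (adjusted p = 0.0356). The direction held in all alternatives (1.44 to 1.72), but the call was lost with centring (adjusted p = 0.0547), with no filter on dim genes (0.0658), with a replicate block (0.0661) and without any one of the day 4 or day 9 arrays, inhibitor-treated ones included (0.101 to 0.261).

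Among 19 adaptors and regulators of the complex, 3 rose and 5 fell at day 4, and 6 rose and 4 fell between day 4 and day 9. The day 4 split depended on scaling, with 2 higher and 11 lower under centring and 2 higher and 12 lower under quantile normalization. Mlkl, whose product permeabilizes the membrane in necroptosis, had log2 signals of 5.55 and 5.86 at day 0, 9.05 and 9.15 at day 4, 8.20 and 8.26 at day 9 with KU55933, and 7.70 and 7.90 at day 9. It rose by 3.39 at day 4 (adjusted p = 1.52e-06) and fell by 1.30 between day 4 and day 9 (adjusted p = 0.000411). Tnfaip3, which encodes the ubiquitin-editing enzyme A20, a brake on TNF receptor signalling, ran the other way. Its log2 signals were 10.07 and 9.94 at day 0, 6.98 and 6.78 at day 4, 8.57 and 8.49 at day 9 with KU55933, and 8.46 on both day 9 arrays. It fell by 3.13 at day 4 (adjusted p = 1.21e-06) and rose by 1.58 between day 4 and day 9 (adjusted p = 5.32e-05). Fcmr, an IgM receptor abundant on B cells, fell by 1.00 at day 4 (adjusted p = 0.0122, not called without the second day 0 array, 0.0719, or the second day 4 array, 0.077) and by 1.93 between day 4 and day 9 (adjusted p = 0.00138). Of 5 B cell markers, 5 and then 4 fell at the same steps. Their part in the Fcmr values was not tested.

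**Figure D3:**
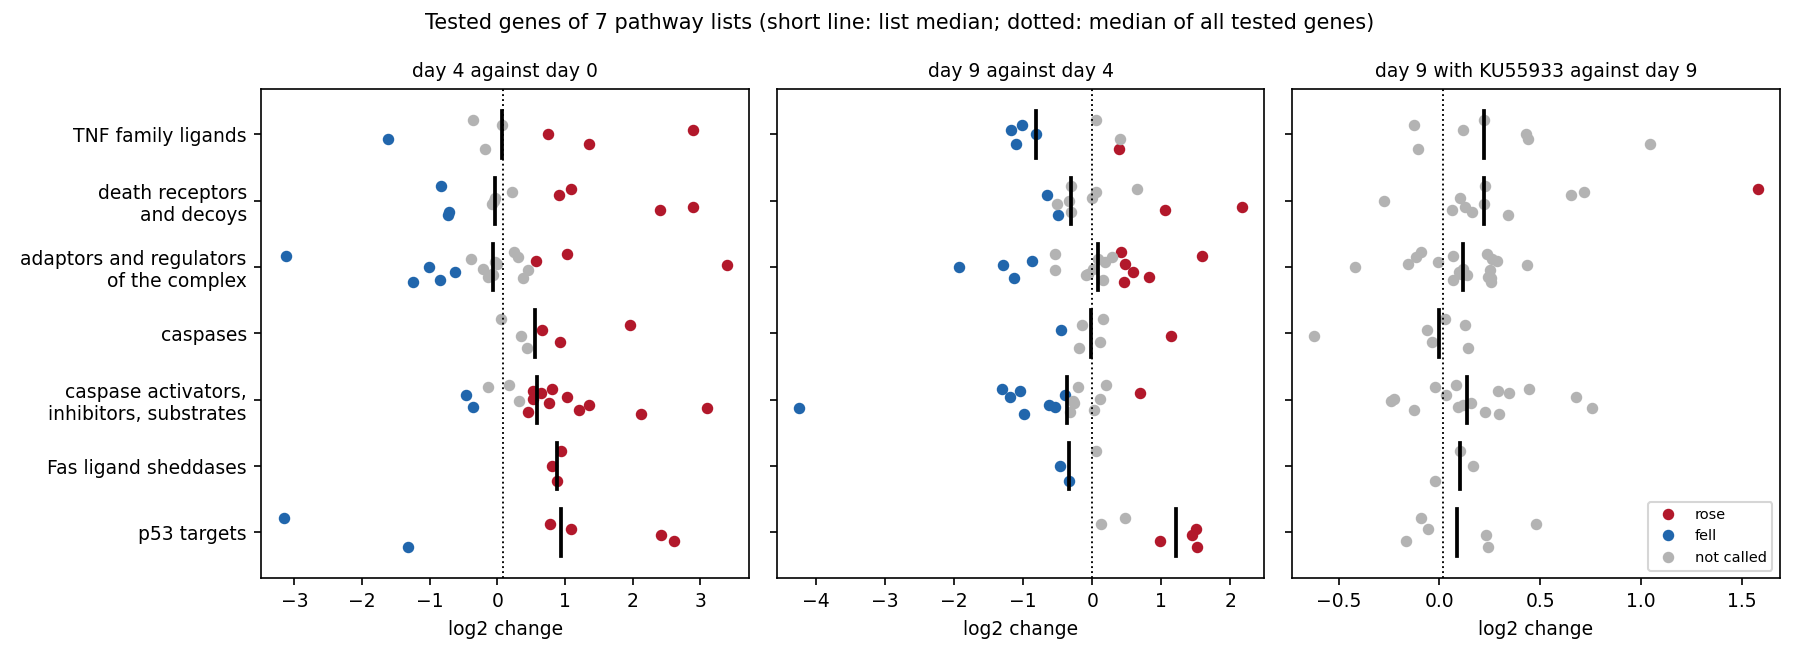
Log2 change (x axis) of every tested gene of the 7 pathway lists (rows, members included) in 3 comparisons; red and blue points rose and fell at an adjusted p below 0.05, grey points were not called, short vertical lines are list medians and dotted lines the median of all tested genes. At day 9 with KU55933 against day 9 the 1 red point is Tnfrsf23.

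Among 6 tested caspases, 3 rose and 0 fell at day 4 against day 0: Casp8, Casp2 and Casp6. An unadjusted p below 0.05 was reached by 5 of the 6. Their median change was 0.55, against 0.08 for all tested genes. With centring the count was 3 higher and 1 lower. Casp2, an initiator caspase activated on the PIDDosome, had log2 signals of 6.87 and 6.84 at day 0, 7.78 and 7.78 at day 4, 7.78 and 7.94 at day 9 with KU55933, and 7.80 and 7.99 at day 9. Like those of Casp8, all its activated arrays lay above day 0 (0.93 at day 4, adjusted p = 0.00026). Casp6, an executioner caspase, was 5.26 and 5.33 at day 0, 5.92 and 6.0 at day 4, 5.37 and 5.51 at day 9 with KU55933, and 5.40 and 5.60 at day 9. It rose by 0.67 at day 4 (adjusted p = 0.00192). It fell by 0.46 between day 4 and day 9 (adjusted p = 0.0266), a call lost with centring (0.0527), quantile normalization (0.052) and no filter (0.0587), and without either day 4 array or the first day 9 array (0.0959 to 0.171).

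Casp4, an inflammatory caspase that binds bacterial lipopolysaccharide, was the caspase with the later rise. Its log2 signals were 6.89 and 6.87 at day 0, 7.35 and 7.10 at day 4, 7.67 and 7.81 at day 9 with KU55933, and 8.45 and 8.27 at day 9. It rose by 1.14 between day 4 and day 9 (adjusted p = 0.000572). The inhibitor-treated arrays lay between those of day 4 and day 9 without overlap, with a difference of -0.62 from day 9 that was not called (adjusted p = 0.0914). Casp1, an inflammasome caspase, differed by 0.44 at day 4 (adjusted p = 0.0522), and Casp9, the initiator of the mitochondrial pathway, by 0.06. Casp12 and Casp14 lay below the array median on all 8 arrays and were not tested.

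**Figure D4:**
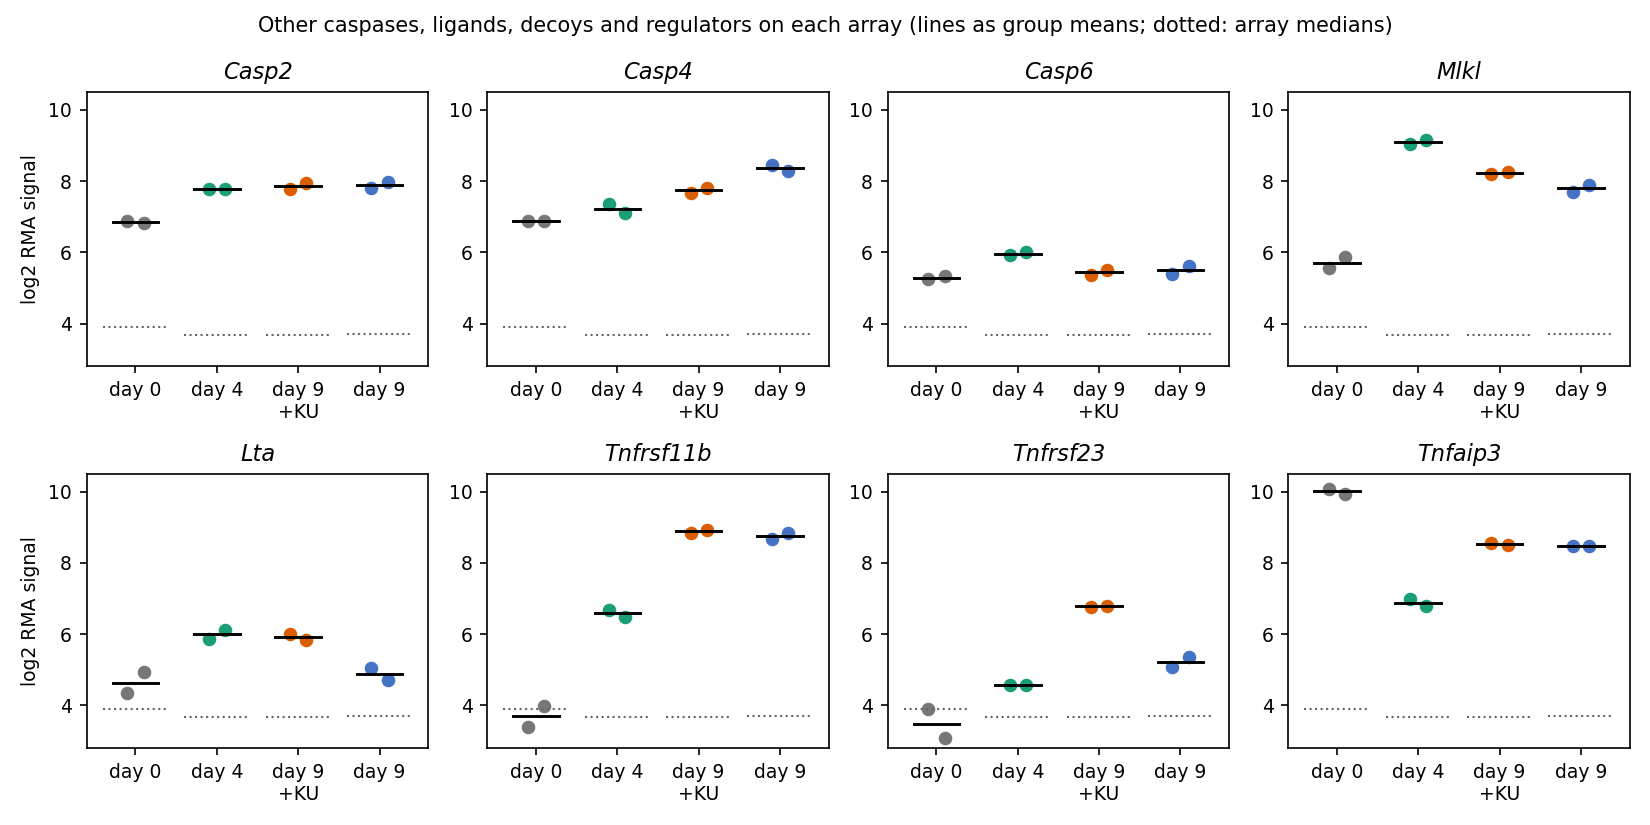
Log2 RMA signal (y axis) of 8 other pathway genes on each array, by group (x axis); points are arrays, solid lines group means and dotted lines array medians. Casp2 and Mlkl are higher on all activated arrays than at day 0, Casp4 is highest at day 9 without inhibitor, Lta is as high with KU55933 as at day 4, Tnfrsf11b and Tnfrsf23 are highest in the inhibitor-treated or both day 9 groups, and Tnfaip3 is lowest at day 4.

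Of 16 tested genes that act on or are cut by caspases, 11 rose and 2 fell at day 4 against day 0, and 1 rose and 8 fell at day 9 against day 4. The genes that rose at day 4 and then fell numbered 6. The medians of the 16 were 0.59 and -0.36, against 0.08 and -0.01 for all tested genes, and with centring the counts were 7 and 3 at day 4 and 1 and 7 at the second step. Birc5, which encodes survivin, a mitotic protein of the inhibitor-of-apoptosis family, rose by 3.10 at day 4 (adjusted p = 4.39e-06). At day 9 it was at least 14.6-fold lower than at day 4 (adjusted p = 3.19e-06), with both day 9 arrays below the array median. Aifm1, a mitochondrial flavoprotein released in some forms of cell death, rose by 2.12 at day 4 (adjusted p = 2.16e-05) and fell by 1.00 afterwards (adjusted p = 0.00382). Bid, the caspase-8 substrate that carries the signal to mitochondria, rose by 1.20 at day 4 (adjusted p = 9.78e-05) and differed from that level by 0.03 at day 9. It is named here for its place downstream of Casp8, after its values were seen. Gsdme, a gasdermin opened by caspases, was the 1 gene of the list that rose between day 4 and day 9 (0.69, adjusted p = 0.00385).

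The 3 tested proteases that release or clip Fas ligand all rose at day 4, under each of the 3 scalings, while the Fasl signal itself was not called as deposited. Sppl2a, an intramembrane protease, was higher by 0.94 (adjusted p = 0.000184), Adam10 by 0.88 (0.000158) and Adam17 by 0.81 (0.000308). Between day 4 and day 9 Adam17 fell by 0.47 (adjusted p = 0.0127), a call lost without any one of the day 4 or untreated day 9 arrays (0.0541 to 0.095). Adam10 fell by 0.34 (adjusted p = 0.0435), which was not called with centring (0.166), quantile normalization (0.0528), no filter (0.105) or a replicate block (0.0661), or without any one of the day 4 or day 9 arrays, inhibitor-treated ones included (0.0759 to 0.177). At day 9 against day 0 Adam10 was called in every refit except that with quantile normalization (0.13, adjusted p = 0.351). Adam17 was called there as deposited (0.33, adjusted p = 0.027) but in only 8 of 18 refits. Quantile normalization gave -0.05, centring 0.11 (adjusted p = 0.388), and the call was also lost with no filter (0.0616), array weights (0.0689), only the 4 arrays compared (0.0963), and without the first day 0 array or any one of the day 4 or untreated day 9 arrays (0.0503 to 0.113).

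Of 6 tested p53 targets outside the death receptors, 4 rose and 2 fell at day 4, and 4 rose and 0 fell between day 4 and day 9. At the second step 5 had an unadjusted p below 0.05. With centring the counts were 3 and 2 at day 4, and 5 and 0 at the second step. Cdkn1a, which encodes the cell cycle inhibitor p21, had log2 signals of 6.88 and 6.86 at day 0, 9.24 and 9.33 at day 4, 10.97 on both arrays at day 9 with KU55933, and 10.74 and 10.73 at day 9. Like Tnfrsf10b it was higher at each step (2.41 and 1.45, adjusted p = 4.15e-05 for the second). Ccng1, the gene of cyclin G1, rose by 2.61 and then by 0.98. Pmaip1, which encodes the BH3-only protein Noxa, fell by 3.16 at day 4 and was not called afterwards. With KU55933 at day 9, 0 of the 6 were called against day 9, and 1 had an unadjusted p below 0.05. Fas, itself a p53 target in textbook accounts, was lower over the same days, and Tnfrsf10b was higher.

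The tested genes whose signals ran most nearly parallel to each member over the 8 arrays are given as a description, since the arrays share 4 groups. For Casp8 they were Tmem39b, Psmd5 and Vdac2 (Pearson r of at least 0.998), and for Tnfrsf10b they were Tbc1d20, Tmem163 and Golga7 (r of at least 0.998). For Tnfsf10 they were Fam3c, Ipo5 and Pa2g4 (r of at least 0.996), all 3 highest at day 4. Cflar was most like Jag1 (0.998), then Sema3d and Gbp10 (0.990 each), which were highest in inhibitor-treated day 9 cells as Cflar was. Jag1 and Sema3d lay below the array median, the level treated as background, on every day 0 and day 4 array. Fas was most like Gdap10, Ptprs and Gpcpd1 (0.988 to 0.980). The 2 members with no called F test had less close partners: Cdon, Neil1 and Foxc1 for Fasl (0.972 to 0.962), and Wdr45b, Nemp2 and Terf2 for Fadd (0.969 to 0.965). Foxc1 too lay below the array median on every day 0 and day 4 array.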

How the data were processed

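RNA of the 8 samples was amplified, biotin-labelled and hybridised, and the arrays were summarized by RMA, per the submitters' processing notes. The deposited values are log2 signals for 41345 transcript clusters. A second table deposited by the authors holds, per listed cluster, the p-value of an ANOVA over all conditions and its false discovery rate p, from Transcriptome Analysis Console per the submitters' processing notes. It was read only for the members. Tool versions, array build, scan dates and batches were not known, and the number of arrays limits precision.

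Symbols came from the supplied probe table (23521 clusters with 1 symbol, 1820 with several, 16004 with none). Each gene was read by its brightest single-symbol cluster and tested if it reached the array median (percentile 50) on at least 2 arrays. Genes held only by clusters naming several genes or none were not analysed here. Group means over all 8 arrays were fitted by lmFit and eBayes of limma 3.58.1 (R 4.3.3), with 4 residual and 3.69 prior degrees of freedom. Two-sided p-values were adjusted by Benjamini-Hochberg over 13998 genes within each comparison and called below 0.05, and the script was tested on simulated data. Samples were grouped by their labels, which call the replicates biological, and p-values measure the spread between those samples. Where both arrays of a group lay below the array median, the fold is a bound against the higher of signal and median.

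The members and the gene lists were chosen with earlier results of these data known. Other genes are named by a rule: all other caspases, the 3 genes of each list with the lowest adjusted p in the F test, and for each member the 3 genes of highest Pearson correlation, apart from genes that are predicted or encode antigen receptors or small RNAs. Promoter windows are RefSeq sequences of GRCm38.p6, and their motifs were chosen after the sequences were seen. Alternatives were other filters, cluster rules, scalings and variance models, a replicate block, only the 4 arrays compared, each array left out, and a 2-fold minimum. A fit without both day 0 arrays was added after seeing the data.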

Additional observations from a re-analysis of the deposited data

How the results depend on the processing

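Of 765 alternative values for 42 member changes, 725 kept their direction and side of the threshold, 21 lost a call, 7 gained one and 12 reversed. The 725 include 42 from averaging a gene's clusters, which could not alter a change, as each member had a single cluster. Leaving out an array outside a comparison could alter the p-value but not the change. Of 22 called member changes, 18 stayed called in every refit that gave a value, and 13 of those 18 also reached a 2-fold change. The others were the changes of Fasl, Fas and Tnfsf10 at day 9 against day 4 and that of Tnfsf10 at day 9 with KU55933 against day 4, the last lost without any one of the arrays compared (adjusted p = 0.0678 to 0.0796). The count of 5 members called at day 9 against day 4 was 2 with a 2-fold minimum and between 2 and 5 when each array was left out. That of 5 at day 9 with KU55933 against day 0 was 3 with a 2-fold minimum. At day 4 against day 0, 4 were called, or 6 under either other scaling.

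Of the member changes, those that reversed were not called as deposited. With array centring Fasl changed by -0.035 at day 9 and -0.211 at day 9 with KU55933 against day 0, and with quantile normalization by -0.206 and -0.317, the last called (adjusted p = 0.0341). Centring also gave -0.129 for Fadd with KU55933 against day 0, -0.008 for Tnfrsf10b with KU55933 against day 9 and 0.024 for Casp8 with KU55933 against day 4. With each array left out, Fadd ran from -0.511 to 0.344 at day 9 against day 0 and from -0.259 to 0.597 with KU55933 against day 0. Tnfrsf10b ran from -0.019 to 0.142 with KU55933 against day 9, and Casp8 from -0.083 to 0.036 with KU55933 against day 4. Adam17, called higher at day 9 than at day 0, changed by -0.052 with quantile normalization. The causes were not tested, beyond the fewer arrays of each leave-one-out fit and the shift that centring applies to every gene.

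Same-numbered deviations from group means correlated at -0.033 to 0.053 between groups, so no effect shared by replicate number was seen. Whether the samples were paired by design cannot be decided from this, and the labels do not state it. With the replicate block 4 members were called at day 4 against day 0, 5 at day 9 against day 0 and 4 at day 9 against day 4. Of 88 called changes of other named genes, 73 stayed called in every refit, and 57 of those reached a 2-fold change. Fas and Fadd were too dim for the percentile 75 filter, so it gave them no value. With 2 arrays per group, the spread of the day 0 pair limits what can be said of Fadd.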
